A study of Mus musculus with 14 samples.

Results

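ONECUT2 sites at gene ends are the places where this transcription factor was bound within 2 kb of either end of a protein-coding gene, in organoids of the mouse small intestine. They were chosen by position alone: of 7268 sites in the authors' deposited table, 1205 (16.6%) had their nearest base within 2 kb of an end of 1 of 21883 protein-coding gene spans of mm10. The strand was known for 79.9% of these genes. With it, 824 sites lay at a gene start, 174 at the opposite (3′) end only, and 207 at an end whose strand was not known. The authors' deposited table lists only sites that differed between the arms at an adjusted p (FDR) of up to 0.0496. The ranks of its p-values imply that 94.0% of tested sites are listed. That ONECUT2 differed at the listed sites was therefore fixed by the listing, and its size and direction are given as a description.

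All libraries came from 1 organoid line of a female mouse with the genotype Lgr5GFPDTR/+, which carries a green fluorescent protein and diphtheria toxin receptor at the stem cell gene Lgr5, in both arms. RANKL-arm organoids were kept 3 days in ENR (with the growth factors EGF, Noggin and R-spondin 1), together with 3 µM CHIR99021, which activates Wnt signalling, and 1.5 mM valproic acid, which inhibits histone deacetylases, then 1 day in ENR alone and 6 days with 100 ng/mL RANKL. Control organoids stayed in ENR medium, so the arms differ in the whole protocol and not in RANKL alone. H3K27ac, a histone mark of active promoters and enhancers, and ONECUT2 were each profiled by ChIPmentation (chromatin immunoprecipitation with on-bead Tn5 tagging) in 3 RANKL and 3 control libraries, from 3 independent differentiation experiments. H3K27ac libraries held 2745451 to 3902301 reads in regions in the RANKL arm and 5434172 to 9160267 in the control arm.

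ONECUT2 belongs to the small ONECUT family of transcription factors, which bind DNA through a cut domain and a homeodomain. The family is best known from liver and pancreas, where its members act with other hepatocyte and endoderm factors. RANKL is a cytokine that drives the making of microfold (M) cells, an epithelial cell type that samples luminal antigen over lymphoid follicles. A site at a gene start can act on that gene's promoter, but nearness alone does not show which gene a site acts on.

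Many gene starts under a site carried an ONECUT core motif. The cores searched were ATTGAT, which reads as ATCAAT on the other strand, and the palindrome ATCGAT, both on either strand, in RefSeq promoter windows of 300 bases, 250 before to 50 after the start (GRCm38.p6, the assembly of mm10, 21237 windows of 17468 protein-coding genes). Of 308 windows overlapped by a gene-end site, 26.9% held ATTGAT, against 6.54% of all windows. For ATCGAT the shares were 16.9% and 0.857%. Either core was in 135 of the 308 windows (43.8%), in 116 of the 177 windows that held the centre of a site (65.5%), and in 7.34% of all windows. TGANTCA, the AP-1 motif, was in 4.87% of windows under a site and 6.99% of all windows. Letters can be shared between matches of ATTGAT and of the other motifs, and each match was counted. Median GC content was 57.5% in windows under a site and 56.3% in all windows.

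The cores lay close to the middle of the sites. In the 45 sites whose window held ATCGAT, the nearest core was a median of 20.0 bp from the site's centre, and within 50 bp in 41. In the 75 sites with ATTGAT alone the median was 22.0 bp, with 60 within 50 bp. The windows end 250 bases before and 50 after the start, so cores farther out were not read. Sites with ATCGAT had a median of 38.4 normalised reads with RANKL and 13.9 in control in the authors' deposited table (linear values of its log2 means). Sites with ATTGAT alone had 40.8 with RANKL and 10.0 in control. The 148 sites whose window held neither core had 29.9 with RANKL and 8.95 in control, also from the authors' deposited table. Of the 308 windows 177 held the centre of a site, so some of these 148 sites may hold a core outside the window.

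The promoters below lie at sites with the most ONECUT2 reads or smallest FDR, or at H3K27ac regions with the smallest adjusted p described later. Capitals mark the ONECUT cores, sequences run 5′ to 3′ on the gene's strand, and the start is the base after the first 250.
Os9, chr10:127121111-127121410, minus strand: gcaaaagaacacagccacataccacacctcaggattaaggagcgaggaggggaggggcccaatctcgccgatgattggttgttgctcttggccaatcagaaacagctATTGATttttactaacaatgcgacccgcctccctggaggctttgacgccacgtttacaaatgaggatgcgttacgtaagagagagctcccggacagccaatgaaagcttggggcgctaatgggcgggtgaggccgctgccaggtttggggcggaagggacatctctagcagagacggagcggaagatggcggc
Churc1, chr12:76765288-76765587, plus strand: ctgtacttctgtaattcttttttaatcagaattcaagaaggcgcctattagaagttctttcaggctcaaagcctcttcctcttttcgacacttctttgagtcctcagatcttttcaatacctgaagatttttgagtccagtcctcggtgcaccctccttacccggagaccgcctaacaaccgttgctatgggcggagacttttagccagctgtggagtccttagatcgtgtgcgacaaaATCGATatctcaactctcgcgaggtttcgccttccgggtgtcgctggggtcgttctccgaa
Zfhx2, chr14:55091999-55092298, minus strand: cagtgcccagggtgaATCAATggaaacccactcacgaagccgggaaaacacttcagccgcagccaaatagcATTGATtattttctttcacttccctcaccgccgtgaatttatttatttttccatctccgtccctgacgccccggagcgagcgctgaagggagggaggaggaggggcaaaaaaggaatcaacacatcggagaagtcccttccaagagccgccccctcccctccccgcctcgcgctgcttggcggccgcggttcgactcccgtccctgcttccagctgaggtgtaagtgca
Zfp689, chr7:127449109-127449408, minus strand: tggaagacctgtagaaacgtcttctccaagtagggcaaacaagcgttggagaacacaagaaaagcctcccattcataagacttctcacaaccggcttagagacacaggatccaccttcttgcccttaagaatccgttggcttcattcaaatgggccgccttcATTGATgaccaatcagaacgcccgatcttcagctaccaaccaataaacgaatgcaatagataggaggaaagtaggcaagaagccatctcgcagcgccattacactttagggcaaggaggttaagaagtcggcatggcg
Pla2g6, chr15:79328322-79328621, minus strand: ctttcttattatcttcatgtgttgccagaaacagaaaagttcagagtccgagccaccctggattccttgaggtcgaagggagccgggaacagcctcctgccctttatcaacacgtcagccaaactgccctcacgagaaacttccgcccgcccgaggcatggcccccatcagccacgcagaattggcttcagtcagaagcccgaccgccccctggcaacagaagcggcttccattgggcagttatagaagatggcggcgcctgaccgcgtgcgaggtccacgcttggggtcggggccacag
Arsa, chr15:89477375-89477674, minus strand: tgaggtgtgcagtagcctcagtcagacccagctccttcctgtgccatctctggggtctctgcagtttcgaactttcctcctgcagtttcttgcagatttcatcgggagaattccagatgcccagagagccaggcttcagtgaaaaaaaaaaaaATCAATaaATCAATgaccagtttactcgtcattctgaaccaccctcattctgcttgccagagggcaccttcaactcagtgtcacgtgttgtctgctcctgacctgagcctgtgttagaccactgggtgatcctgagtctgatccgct
Ddx58, chr4:40239776-40240075, minus strand: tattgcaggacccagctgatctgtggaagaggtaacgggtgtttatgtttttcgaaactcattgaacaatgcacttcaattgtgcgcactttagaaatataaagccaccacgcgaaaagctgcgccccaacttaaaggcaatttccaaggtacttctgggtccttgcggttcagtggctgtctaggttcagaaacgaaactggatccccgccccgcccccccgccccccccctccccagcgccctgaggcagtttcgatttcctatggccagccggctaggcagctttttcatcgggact
Slc6a20a, chr9:123678783-123679082, minus strand: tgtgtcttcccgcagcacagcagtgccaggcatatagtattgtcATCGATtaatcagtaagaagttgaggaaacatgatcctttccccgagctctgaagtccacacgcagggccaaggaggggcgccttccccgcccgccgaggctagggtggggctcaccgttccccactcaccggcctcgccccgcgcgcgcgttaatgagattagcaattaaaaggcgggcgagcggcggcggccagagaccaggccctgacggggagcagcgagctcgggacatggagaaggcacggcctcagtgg
Fem1a, chr17:56256543-56256842, plus strand: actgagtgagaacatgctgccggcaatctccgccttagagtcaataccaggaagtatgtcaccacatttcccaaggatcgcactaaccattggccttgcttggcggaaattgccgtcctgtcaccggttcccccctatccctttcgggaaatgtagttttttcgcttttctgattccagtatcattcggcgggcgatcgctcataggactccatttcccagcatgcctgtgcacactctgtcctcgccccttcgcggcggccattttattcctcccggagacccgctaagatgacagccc
Of these 9, Pla2g6, Ddx58 and Fem1a had no core in the window. In Arsa 2 copies of ATCAAT stand 2 bases apart, in a window that the site covers whole, and in Churc1 the single ATCGAT begins 11 bases before the start.

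Shorter stretches around a core are given for 4 genes that the lists named, chosen after their values were seen, again with the core in capitals. The windows under the sites at Tcf7l2, Aurka and Acadm, also named by the lists, held no core, and that at Avil held 2 copies of ATTGAT. At Aurka and Acadm the window covered 86 and 49 bases of the site and missed its centre, so a core there was not read.
Ccl20, chr1:83116665-83116694, plus strand: tgaggcagattaATCAATgggggaaaaccc
Hnf4a, chr2:163506786-163506815, plus strand: gtgattagaagaATCAATaagataaccggg
Foxa2, chr2:148047165-148047194, minus strand: acaaggcccattATTGATtttttttctcct
Ifit1, chr19:34640692-34640721, plus strand: agccttctcctcATCGATttcagtggagaa
Counted from the start, the core lay at -89 in Ccl20, -59 in Hnf4a, -213 in Foxa2 and -185 in Ifit1, whose site also lay at the start of Ifit1bl2.

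Sites at starts were densest just upstream. Of 824 start sites, 169 (20.5%) overlapped the start base itself and 410 (49.8%) came within 500 bp of it. Centres fell in the 200 bases before the start at 113 sites and in the 200 bases after it at 55. Beyond 1000 bp the balance turned, with 117 sites upstream and 186 inside the gene or past it. At 93 start sites (11.3%) starts of genes on opposite strands both lay within 2 kb. In all, 1393 genes (6.37% of 21883) had a site at an end, 40 of them 2 sites and 1, Efnb2, 3 sites. Efnb2 encodes ephrin-B2, a membrane ligand of Eph receptors, and had 2 sites at its start and 1 within 909 bp of its 3′ end.

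**Figure D1:**
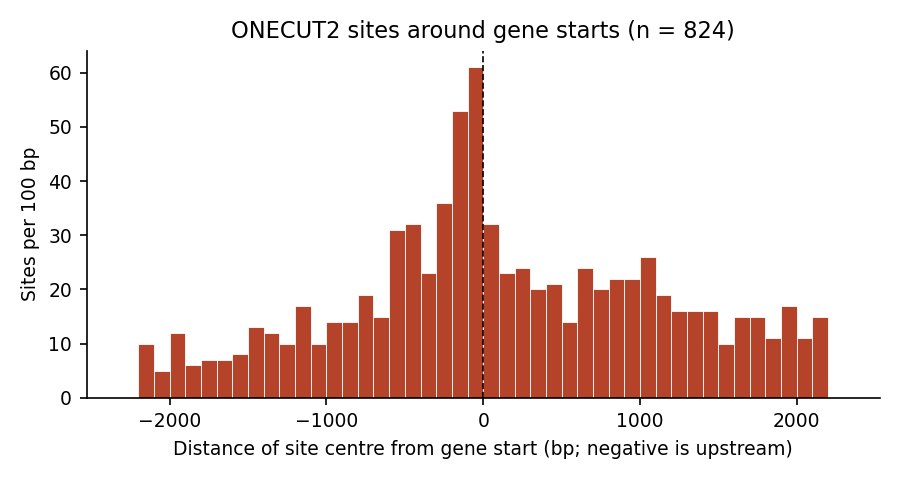
Number of ONECUT2 sites per 100 bp (vertical axis) against the distance in bp of the site's centre from the nearest gene start (horizontal axis, negative upstream) for 824 start sites. The dashed line is the start, and the 200 bp before it hold 113 centres, against 55 in the 200 bp after it.

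ONECUT2 was more abundant at gene starts in both arms than at distal sites, by the authors' means. In the authors' deposited table, start sites had a median of 31.2 normalised reads with RANKL (quartiles 20.7 and 52.3), 3′ end sites 26.4 and distal sites 25.3. In control the same medians were 8.83 (5.42 and 16.2), 6.13 and 5.83 in the authors' deposited table. The listed log2 fold was accordingly smaller at starts, with a median of 1.67 against 1.78 at 3′ ends and 1.90 at the 6063 distal sites in the authors' deposited table. Folds over 3 on the log2 scale were listed for 3.52% of start sites, 9.77% of 3′ end sites and 8.68% of distal sites in the authors' deposited table. No gene-end site and 7 distal sites were lower with RANKL in the authors' deposited table, where 93.9% of tested sites were listed as higher. The table has no values per library, so no spread can be set against these differences.

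**Figure D2:**
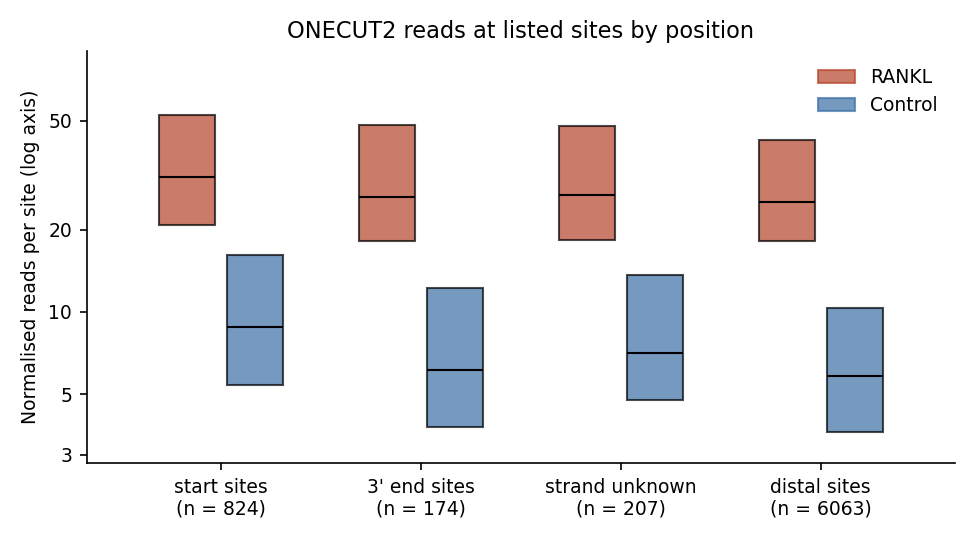
Normalised ONECUT2 reads per site (vertical axis, log scale) in RANKL (red) and control (blue) for start, 3′ end, strand-unknown and distal sites. Boxes span the quartiles over sites and lines are medians of the authors' means, with start sites at 31.2 with RANKL and 8.83 in control.

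The sites with the most ONECUT2 reads were already bound in control. In the authors' deposited table the start of Os9, which encodes a lectin that sorts misfolded proteins of the endoplasmic reticulum for degradation, had 361 normalised reads with RANKL and 255 in control (log2 fold 0.50). Churc1, a zinc finger gene, had 284 with RANKL and 206 in control (0.46) in the authors' deposited table, the smallest fold of any gene-end site. Zfhx2, a zinc finger homeobox gene, had 256 with RANKL and 116 in control (1.13) in the same authors' deposited table. The other sites of this kind lay at Bcl7a, a subunit gene of a SWI/SNF chromatin remodeller, Arrdc4, an arrestin-domain gene, Zfp689, Ppp6r2, a regulatory subunit gene of protein phosphatase 6, and Pla2g6, a phospholipase gene, with 238 to 255 reads with RANKL and 111 to 178 in control in the authors' deposited table.

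The sites with the smallest FDR had larger folds, which a ranking by FDR favours. In control, those named here had 6.04 to 15.8 normalised reads in the authors' deposited table. The median over all gene-end sites in control was 8.04 (quartiles 5.01 and 15.2) in the authors' deposited table. At the start of Arsa, the gene of the lysosomal arylsulfatase A, the authors' deposited table gives 186 normalised reads with RANKL and 12.2 in control (log2 fold 3.86, FDR 3.00e-33). Near the start of the circadian factor gene Clock it gives 157 with RANKL and 14.8 in control (3.31) in the authors' deposited table. Anxa2 (annexin A2) had 127 with RANKL and 15.8 in control in the authors' deposited table. A1cf, whose product guides editing of apolipoprotein B mRNA, had 112 with RANKL and 10.0 in control in the authors' deposited table. Aopep and Syncrip, at their 3′ ends, and Ddx58, which encodes the viral RNA sensor RIG-I, had 95.5 to 102 with RANKL and 6.04 to 9.82 in control in the authors' deposited table. Only 3 gene-end sites, at Slc37a1, Psmd6 and Ticam2, had a control mean listed at 0 on the log2 scale in the authors' deposited table.

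Start sites mostly lay in acetylated chromatin. An H3K27ac region of 2000 bp overlapped 556 of 824 start sites (67.5%), 66 of 174 at 3′ ends (37.9%) and 2204 of 6063 distal sites (36.4%). Of the 268 start sites outside any region, 161 were within 1 kb of one. Arsa, Anxa2, Aopep and Syncrip, among the sites with the smallest FDR, and Bcl7a and Ppp6r2, among those with the most reads, had no region over the site.

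At the acetylated sites, H3K27ac was lower with RANKL more often than higher. Of 736 regions over gene-end sites tested, 57 (7.74%) were higher in the RANKL libraries and 385 (52.3%) lower, by the quasi-likelihood test of edgeR on 3 against 3 libraries, at a threshold of 0.05 on p-values adjusted over all regions by the Benjamini-Hochberg method. Over all 54765 regions 14.8% were higher and 21.0% lower. The median log2 fold was -0.33 over the 736 and 0.06 over all regions. The median level of these regions was 37.3, 37.7 and 35.0 CPM (read counts scaled to the TMM-normalised library size) in the RANKL libraries and 49.1, 46.2 and 48.4 CPM in the control libraries. The RANKL libraries all lay below the control libraries, and the share of all region reads in these regions was 3.18% to 3.28% in RANKL libraries and 3.48% to 3.70% in control libraries. In these bulk samples, fewer cells of a type and less of the mark per cell cannot be told apart.

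The balance moved with signal strength. Regions over gene-end sites had a median of 36.6 CPM with RANKL and 48.1 CPM in control, and all regions 9.47 CPM with RANKL and 8.52 CPM in control. With the trend of fold on signal over all regions removed, 134 of the 736 (18.2%) were higher and 223 (30.3%) lower, against 15.4% and 15.6% of all regions, with a median log2 fold of -0.125 against -0.012. By library size only, 84 were higher and 326 lower, with 18.1% and 17.5% of all regions. With the replicate block 52 were higher and 368 lower, with 14.1% and 20.3% of all regions, and with DESeq2 50 and 333 of 731, with 12.3% and 18.5% of all regions. Of the 385 lower regions 220 were also lower with the trend removed, and of the 57 higher ones 55 were also higher. Log2 folds of 1 or more in size were called for 23 higher and 39 lower regions, or 24 and 16 with the trend removed.

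Starts and 3′ ends differed in their counts. Over start sites, 29 of 550 regions (5.27%) were higher and 319 (58.0%) lower, with a median log2 fold of -0.38. Over 3′ end sites, 12 of 65 were higher and 12 lower, with a median of 0.03. Where the strand was not known, 16 of 121 were higher and 54 lower. With the trend removed, 15.8% of regions over start sites were higher and 32.5% lower, and 27.7% and 16.9% of those over 3′ end sites. Regions over start sites had a median of 39.9 CPM with RANKL and 52.3 CPM in control. Those over 3′ end sites had 11.5 CPM with RANKL and 11.8 CPM in control, so these shares were not taken at like signal. Where starts of genes on opposite strands both lay within 2 kb, 2 of 70 regions were higher and 42 lower, or 8 and 28 with the trend removed. Over the other start sites, 27 of 480 regions were higher and 277 lower. The median log2 fold was -0.41 in the former group and -0.36 in the latter, so the groups were much alike.

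Lower calls also outnumbered higher ones at gene ends without a listed site, of whose 12624 regions 7.67% were higher and 44.9% lower (median log2 fold -0.30). Regions at distal ONECUT2 sites only went the other way, with 27.6% higher and 17.5% lower of 2189 (median 0.16). With the trend removed these shares were 13.0% and 29.6% at gene ends without a site, and 32.1% and 11.5% at distal sites. The sets also differed in signal. Gene-end regions without a site had a median of 23.7 CPM with RANKL and 32.2 CPM in control. Those at distal sites only had 15.2 CPM with RANKL and 12.2 CPM in control. The difference between these sets of regions was not tested, as regions are not replicates.

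**Figure D3:**
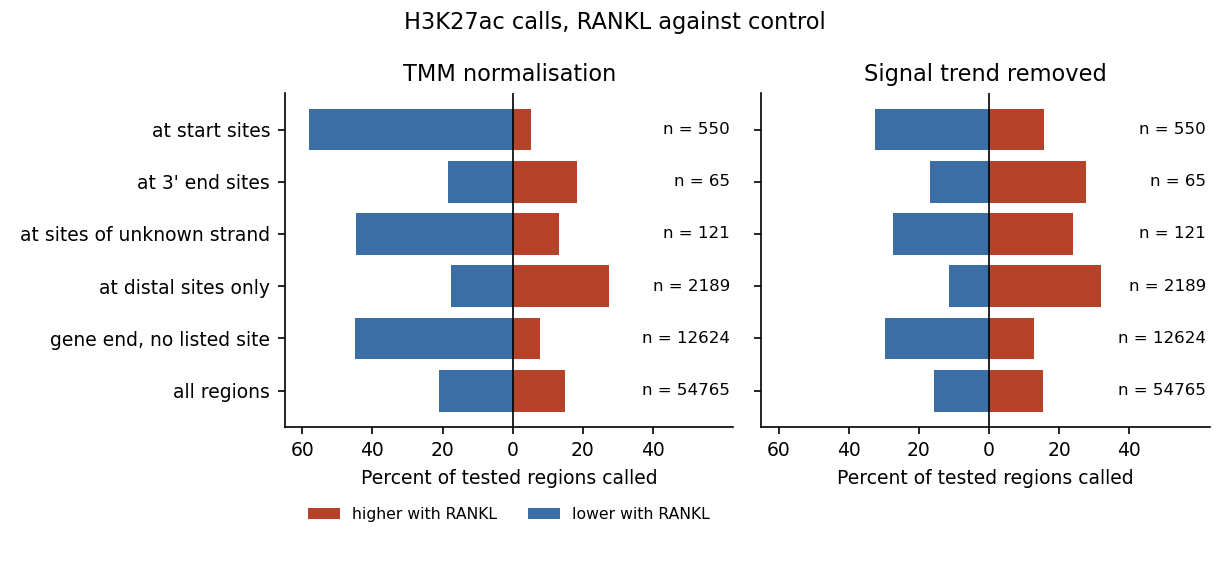
Percent of tested H3K27ac regions called higher (red, right of 0) or lower (blue, left of 0) with RANKL by edgeR at an adjusted p under 0.05, under TMM normalisation and with the signal trend removed. Regions at start sites had 5.27% higher and 58.0% lower under TMM and 15.8% and 32.5% with the trend removed.

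The sites with the largest ONECUT2 folds had fewer lower and more higher regions. Gene-end sites were split into 4 groups of 301 or 302 by the log2 fold in the authors' deposited table. With the smallest folds (0.46 to 1.37), 3.65% of 219 regions were higher and 60.7% lower, with a median H3K27ac log2 fold of -0.43. The middle groups had 5.76% and 4.02% higher, and 57.6% and 48.9% lower. With the largest folds (2.07 to 5.05), 19.7% of 157 were higher and 38.9% lower, with a median of -0.18, so the share of higher regions was raised in this group alone. With the trend removed the shares were 11.4% and 35.6% at the smallest folds and 33.1% and 19.7% at the largest. At starts alone the largest folds had 11.8% higher and 48.0% lower, and 25.2% and 24.4% with the trend removed. Across gene-end sites in a region, Spearman's rho between the authors' deposited ONECUT2 log2 fold and the H3K27ac log2 fold was 0.24 (n = 744; Pearson's r 0.38), and it was 0.20 over 556 start sites, 0.55 over 66 3′ end sites and 0.55 over 2202 distal sites. These points come from the same organoid arms, and neighbouring sites can share a region.

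**Figure D4:**
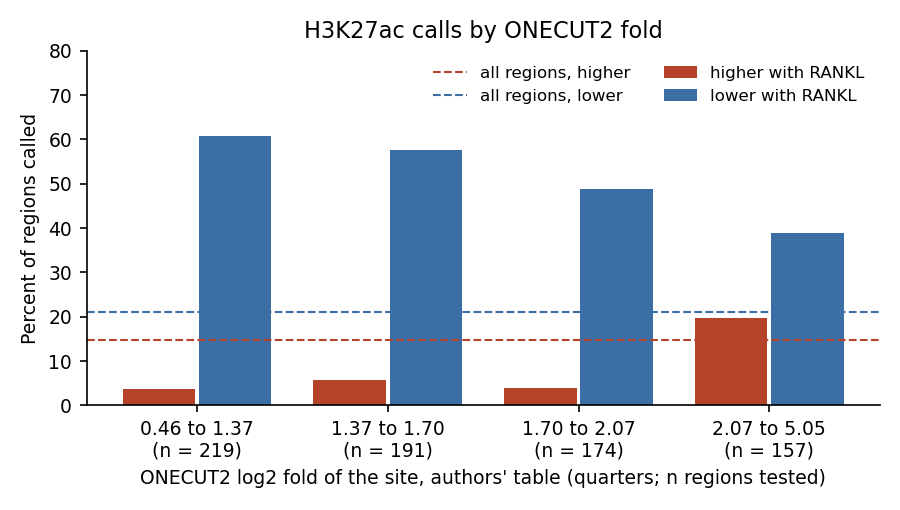
Percent of H3K27ac regions over gene-end sites called higher (red) or lower (blue) with RANKL (vertical axis) in 4 groups of sites by the authors' ONECUT2 log2 fold (horizontal axis). Dashed lines are all regions, 14.8% higher and 21.0% lower, and the group with the largest folds has 19.7% higher and 38.9% lower.

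By adjusted p, the higher regions were led by Ubd, which encodes the ubiquitin-like protein FAT10 (chromosome 17, 37192831 to 37194831). It had 60.3, 71.2 and 59.1 CPM in RANKL libraries and 2.32, 5.39 and 2.25 CPM in control libraries. Every RANKL library lay far above every control library, with a log2 fold of 4.10 ± 0.17 (SE, edgeR adjusted p = 2.15e-91). The site 211 bp from its start had 35.0 normalised reads with RANKL and 2.34 in control in the authors' deposited table. Ccm2l, a paralog of a vascular scaffold protein gene, had 67.8, 50.1 and 51.6 CPM with RANKL and 2.90, 6.38 and 5.63 CPM in control (log2 fold 3.42 ± 0.16). Nrxn2, a neurexin gene, had 52.1, 57.7 and 64.9 CPM with RANKL and 5.99, 7.26 and 6.00 CPM in control (3.16 ± 0.15).

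Slc6a20a and Akp3 were also among the 10 higher regions with the smallest adjusted p. Over the enterocyte list, of which neither gene is a member, 8 of 35 gene-end regions were higher and 14 lower. The shares were 14.8% higher and 21.0% lower over all regions, and 7.67% and 44.9% over gene-end regions without a listed site. Slc6a20a, which encodes a transporter of proline and other imino acids, had 82.8, 67.6 and 78.9 CPM with RANKL and 13.9, 12.1 and 14.6 CPM in control at its start (log2 fold 2.51 ± 0.13, SE). This is the start whose ATCGAT core is shown above, and the authors' deposited table gives its site 99.0 reads with RANKL and 19.8 in control. Akp3, an intestinal alkaline phosphatase gene, had 31.8, 28.7 and 23.1 CPM with RANKL and 2.90, 3.96 and 4.13 CPM in control at its 3′ end (2.89 ± 0.22). The log2 fold of its site was 3.99 in the authors' deposited table, and that at Ccm2l was 5.05. The groups were apart at both genes.

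Of the other leading higher regions, Lpgat1, an acyltransferase gene of phospholipid metabolism, had a mean of 69.1 ± 2.42 CPM with RANKL and 19.1 ± 2.08 CPM in control (SD, n = 3; log2 fold 1.84). Lfng, whose product glycosylates Notch receptors, had 37.2 ± 4.58 CPM with RANKL and 9.12 ± 0.80 CPM in control (2.03), past its 3′ end. The starts of Vash2, a tubulin carboxypeptidase gene, and Loxl4, a lysyl oxidase gene, had log2 folds of 1.50 and 1.82. The 10 regions had adjusted p from 2.15e-91 to 8.17e-27 by edgeR, and log2 folds of 1.54 to 4.16 with the trend removed.

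Ranked by adjusted p, the lower regions were led by Efna4, which encodes an ephrin ligand, past its 3′ end (chromosome 3, 89330718 to 89332718). It had 20.0, 10.6 and 17.1 CPM in RANKL libraries and 54.1, 51.1 and 48.4 CPM in control libraries (log2 fold -1.69 ± 0.14, SE, edgeR adjusted p = 2.97e-28). Its site held 97.8 reads with RANKL and 51.7 in control in the authors' deposited table, in which every gene-end site was listed as higher. Hcar2, the gene of a receptor for nicotinate and butyrate, had 11.4, 9.96 and 7.23 CPM with RANKL and 32.9, 39.4 and 36.6 CPM in control (-1.97 ± 0.17). Tnik, a kinase gene of the Wnt pathway, had 27.5, 34.1 and 28.2 CPM with RANKL and 72.3, 71.8 and 83.3 CPM in control (-1.34 ± 0.12). In each of these the RANKL libraries all lay below the control libraries.

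The other leading lower regions were at starts. Faah, which breaks down fatty acid amides, had 16.5 ± 1.45 CPM with RANKL and 45.7 ± 5.57 CPM in control (SD, n = 3; log2 fold -1.49). Crot, a peroxisomal carnitine acyltransferase gene, had 28.9 ± 6.31 CPM with RANKL and 64.8 ± 5.04 CPM in control (-1.17). Prkca (protein kinase C alpha), the formin gene Diaph3, Fem1a, a ubiquitin ligase subunit gene, Grtp1 and Plekhh3 had log2 folds of -1.26 to -1.14. All 10 stayed lower with the trend removed, at -1.80 to -0.86, and their ONECUT2 log2 folds ran from 0.90 to 2.24 in the authors' deposited table.

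**Figure D5:**
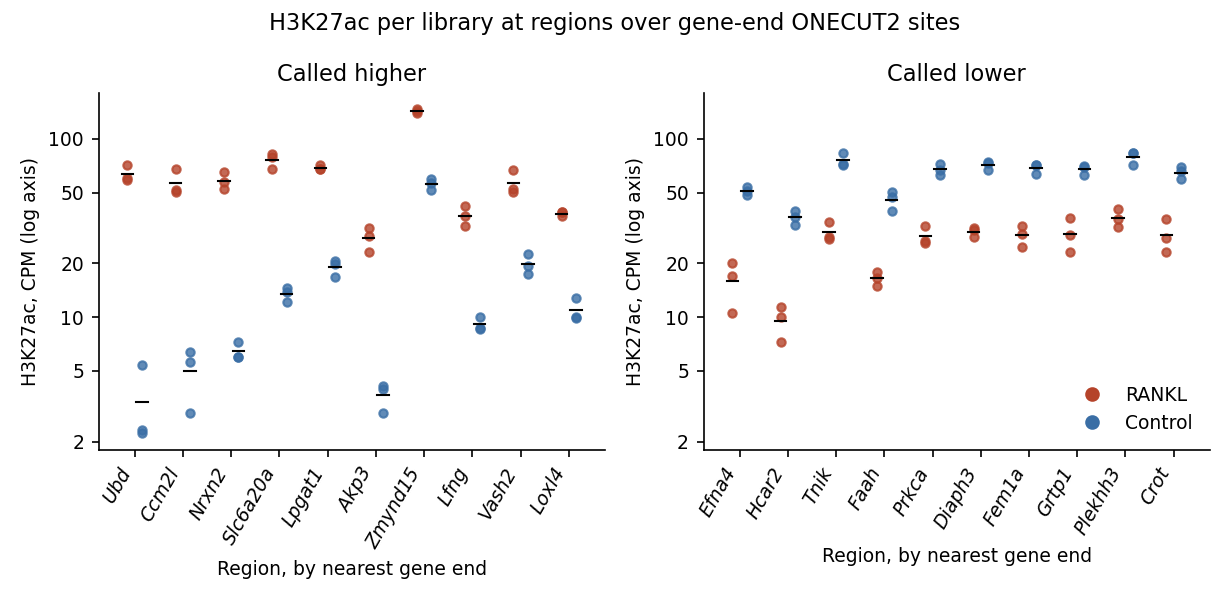
H3K27ac in CPM (vertical axis, log scale) of each RANKL (red) and control (blue) library at the 10 regions with the smallest adjusted p in each direction, named by the nearest gene end (horizontal axis). Short lines are means of 3 libraries. Ubd is at 59.1 to 71.2 with RANKL and 2.25 to 5.39 in control, and the groups are apart in every region.

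At the sites with the strongest ONECUT2 signal or the smallest FDR, H3K27ac mostly fell or was not called. At Zfp689 it was 26.1 ± 6.88 CPM with RANKL and 51.5 ± 0.88 CPM in control (SD, n = 3; edgeR adjusted p = 6.57e-13). At Arrdc4 the log2 fold was -0.66, at Zfhx2 -0.75 and at Churc1 -0.46, the last with an adjusted p of 0.409 once the trend was removed. Os9 had 13.9, 17.5 and 17.6 CPM with RANKL and 22.0, 22.3 and 23.4 CPM in control (-0.45, adjusted p = 0.0229), a call that ended without RANKL replicate 1 (0.105), control replicate 2 (0.0687) or control replicate 3 (0.0651), by library size only (0.0885), with DESeq2 (0.0814) and with the trend removed (0.245).

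Pla2g6 was not called (125 ± 13.0 CPM with RANKL and 130 ± 21.5 CPM in control, SD, n = 3), nor were A1cf (log2 fold 0.12, edgeR adjusted p = 0.451) and Ddx58 (0.08, 0.628), although the last pair were higher with the trend removed (0.43 and 0.38). Clock was at -0.29 (adjusted p = 0.0437), which was lost with the replicate block (0.0596), with DESeq2 (0.107), by library size only (0.157) and in 5 of the 6 fits without 1 library, those without control replicate 1 (0.075), control replicate 3 (0.208), RANKL replicate 1 (0.097), RANKL replicate 2 (0.0519) or RANKL replicate 3 (0.129), and it became 0.01 with the trend removed.

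Genes of intestinal transcription factors had a site at an end in 7 of 32 entries (21.9%), beside 6.37% of all genes. Of their 7 regions tested, 2 were higher and 3 lower, beside 7.74% and 52.3% of the 736 regions over gene-end sites. Over all gene-end regions of this list, with or without a site, 5 of 40 were higher and 19 lower. The shares were 14.8% and 21.0% over all regions, and 7.67% and 44.9% over gene-end regions without a listed site. Isx, an intestine-specific homeobox gene, had 107, 110.0 and 99.3 CPM with RANKL and 85.8, 82.8 and 95.8 CPM in control (log2 fold 0.26, edgeR adjusted p = 0.0439), a call lost with the replicate block (0.0847) and without RANKL replicate 1 (0.117), RANKL replicate 2 (0.162) or control replicate 1 (0.136).

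At the start of Hnf4a, the nuclear receptor gene central to enterocyte identity, H3K27ac was 42.8, 33.5 and 30.6 CPM with RANKL and 52.6, 47.6 and 46.9 CPM in control (log2 fold -0.48, edgeR adjusted p = 0.000559; -0.17 with the trend removed, adjusted p = 0.251). ONECUT2 there had 108 reads with RANKL and 52.0 in control in the authors' deposited table. Foxa2, a forkhead factor of endoderm, had 33.9, 46.2 and 28.9 CPM with RANKL and 52.2, 52.0 and 52.7 CPM in control (-0.54, adjusted p = 7.43e-05; 0.0878 with the trend removed). Tcf7l2, the main Wnt effector of the crypt, was at -0.29 (adjusted p = 0.0213), which was lost with the replicate block (0.0516), by library size only (0.0691), with the trend removed (0.0714) and without RANKL replicate 1 (0.0573), RANKL replicate 3 (0.111), control replicate 1 (0.106) or control replicate 3 (0.111). Creb3l3, a regulator of lipid genes, was not called (0.12). Its site was 1418 bp from the 3′ end of Creb3l3 and 151 bp from that of Thop1.

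Of 30 M cell genes 2 (6.67%, beside 6.37% of all genes) had a gene-end site, Cxcl16 and Ccl20, both chemokine genes. The Cxcl16 site lay inside a protein-coding gene span, 799 bp from an end of Cxcl16 and 248 bp from an end of Zmynd15. The region over it had 147, 140.0 and 143 CPM with RANKL and 56.8, 52.0 and 59.3 CPM in control (log2 fold 1.36 ± 0.11, SE, edgeR adjusted p = 3.20e-31). The same region stands for both genes. Its site had 109 reads with RANKL and 16.8 in control in the authors' deposited table. Ccl20, which attracts cells with the receptor CCR6, had 26.1 to 30.2 CPM in the 3 RANKL libraries and 23.0 to 24.0 CPM in the 3 control libraries. The groups did not overlap, but the difference was not called (0.24, adjusted p = 0.195; 0.50, adjusted p = 0.00354, with the trend removed). The site over the start of Ccl20 had 81.2 reads with RANKL and 14.3 in control in the authors' deposited table.

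Of 29 NF-κB genes 1 (3.45%, beside 6.37% of all genes), Nfkbiz, had a site, which also lay within 2 kb of an end of Nxpe3. Nfkbiz encodes an inducible nuclear IκB protein and had 61.4, 49.5 and 57.9 CPM with RANKL and 23.0, 23.3 and 22.1 CPM in control (log2 fold 1.30 ± 0.12, SE, edgeR adjusted p = 3.20e-22). Its ONECUT2 site was weak, with 16.6 reads with RANKL and 6.87 in control in the authors' deposited table. Over all gene-end regions of the lists, with or without a site, 14 of 27 were higher and 4 lower for M cell genes, and 16 of 31 higher and 4 lower for NF-κB genes, beside 14.8% higher and 21.0% lower of all regions and 7.67% higher and 44.9% lower of gene-end regions without a listed site.

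Enterocyte genes had a site in 5 of 36 entries (13.9%), beside 6.37% of all genes. The site at Krt20, an intermediate filament gene, had 122 reads with RANKL and 40.6 in control in the authors' deposited table. Those at Mme, a brush border peptidase gene, Myo1a, a brush border myosin gene, and Cdhr5, a microvillus adhesion gene, had 20.0 to 25.8 with RANKL and 3.85 to 5.87 in control in the authors' deposited table. The Cdhr5 site overlapped the 3′ end of Sct and was 1351 bp from the start of Cdhr5. The Myo1a site also lay within 2 kb of an end of Nemp1. None of these 4 overlapped an H3K27ac region. The fifth, at the start of the sucrase-isomaltase gene Sis, lay in a region that was lower (log2 fold -0.57, edgeR adjusted p = 0.0342). Of 23 stem cell and Wnt genes 1 (4.35%, beside 6.37% of all genes) had a site, Rnf43, which encodes a ligase that removes Wnt receptors. Over all gene-end regions of this list 2 of 27 were higher and 15 lower, beside 7.67% and 44.9% of gene-end regions without a listed site. The Rnf43 site was 282 bp from the 3′ end of that gene and also lay within 2 kb of the start of Supt4a. No region overlapped that site. It had 28.7 reads with RANKL and 2.65 in control in the authors' deposited table.

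The 3 of 18 cell cycle genes with a site (16.7%, beside 6.37% of all genes) all had lower H3K27ac. All 3 sites were start sites, and 58.0% of all regions over start sites were lower. Mcm3, of the replication helicase, had 10.0, 13.3 and 8.92 CPM with RANKL and 21.6, 25.1 and 31.3 CPM in control (log2 fold -1.28 ± 0.18, SE, edgeR adjusted p = 6.37e-11). Ccnb1 (cyclin B1) was at -0.58 and the mitotic kinase gene Aurka at -0.38, both no longer called with the trend removed (adjusted p = 0.087 and 0.334). The Aurka site also lay within 2 kb of an end of Cstf1. Over all gene-end regions of this list 1 of 20 was higher and 17 lower, beside 14.8% higher and 21.0% lower of all regions and 44.9% lower of gene-end regions without a listed site.

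Of the lipid list, Acadm, of mitochondrial fatty acid oxidation, was lower (log2 fold -0.45, edgeR adjusted p = 0.00203; 0.424 with the trend removed), and the lipid droplet gene Plin2 was not called (-0.03), though it was higher at 0.28 with the trend removed (adjusted p = 0.0453). Avil, a villin-family gene of tuft cells, was not called (0.24), and its site also lay within 2 kb of an end of Ctdsp2. Of 22 interferon and antigen presentation genes matched, Ifit1 and B2m had a site (9.09%, beside 6.37% of all genes). Ifit1, an interferon-induced antiviral gene, had 17.1, 22.9 and 14.5 CPM with RANKL and 31.3, 28.2 and 29.1 CPM in control (-0.71, adjusted p = 3.49e-05). B2m, the light chain of MHC class I, was at -0.31 (adjusted p = 0.0232), which was lost by library size only (0.0938), with DESeq2 (0.0829), with the trend removed (0.884) and without RANKL replicate 1 (0.0756), RANKL replicate 3 (0.234), control replicate 1 (0.0739) or control replicate 3 (0.12).

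The tissue label was checked against H3K27ac at gene ends. All 9 epithelial markers had a region, with a summed level of 912 to 996 CPM in RANKL libraries and 1120.0 to 1250.0 CPM in control libraries. Of 9 leukocyte markers 3 had a region (84.4 to 95.3 CPM with RANKL and 68.4 to 78.4 CPM in control), and Ptprc and Cd3e had none. Of 9 mesenchymal markers 3 had a region (8.45 to 17.1 CPM with RANKL and 7.73 to 12.9 CPM in control), and of 7 endothelial markers 1 did (2.72 to 3.57 CPM with RANKL and 2.51 to 5.25 CPM in control). The leukocyte sum was higher and the epithelial sum lower in every RANKL library than in any control library, and their part in the results was not tested. Of the epithelial markers Hnf4a, Cdh1 and Krt19 had a gene-end ONECUT2 site (33.3%, beside 6.37% of all genes). Of the leukocyte, mesenchymal and endothelial markers 0 did.

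The 2 kb limit cut through a continuous range. The 174 sites at 1500 to 2000 bp had a median log2 fold of 1.83 in the authors' deposited table and 155 sites at 2000 to 2500 bp one of 1.74. H3K27ac regions overlapped 30.5% and 28.4% of them. Of the regions tested, 10 of 53 were higher and 12 lower just inside the limit, and 14 of 44 higher and 8 lower just outside it.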

How the data were processed

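H3K27ac values are the raw read counts per region that the authors deposited for 55050 regions of 2000 bp in 6 libraries, per the file headers. ONECUT2 values are the authors' deposited log2 mean normalised reads per arm, log2 fold, p-value and FDR (q-value) per site of 401 bp (1 site is wider), which DiffBind gave on mm10 (per the submitters' processing notes). For the aligner, the peak caller, the DiffBind version and how ONECUT2 reads were normalised, the answer is not given in the sources used here. Input libraries and ONECUT2 values per library were not analysed here. Reads per site are 2 to the power of the deposited log2 means.

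Counts were tested with edgeR 4.0.16 in R 4.3.3 (filterByExpr, TMM, quasi-likelihood, Benjamini-Hochberg over 54765 regions, threshold 0.05), checked on simulated data. A standard error (SE) is the absolute log2 fold divided by the square root of F. DESeq2 1.42.0 and other settings were alternatives. Per the labels, a replicate number marks a shared differentiation experiment, and same-numbered deviations correlated at -0.027 to 0.014. Replicate pairs of 1 group differed beyond sampling noise (chi-square per degree of freedom 1.80 to 2.06). P-values measure the spread between experiments of 1 line.

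A site was at a gene end when its nearest base was within 2 kb of either end of a RefSeq protein-coding span, and overlapped a region by at least 1 bp. Strand came from the promoter table. Region coordinates are as deposited. Named genes were the 10 regions with the smallest adjusted p in each direction, the 8 sites with the most RANKL reads, the 8 with the smallest FDR, and the members of 13 gene lists. Members and lists were chosen with earlier results of these data known. A few genes that the rule names are not reported here.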

Additional observations from a re-analysis of the deposited data

How the results depend on the processing

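Counts of H3K27ac regions over gene-end sites kept more lower than higher calls under each alternative run. With the signal trend removed they were 134 higher and 223 lower, with a median log2 fold of -0.125. With gene ends within 5 kb there were 1896 sites, and 108 regions were higher. Leaving out each library in turn gave 45 to 58 higher and 325 to 382 lower regions. The replicate block gave 52 higher and 368 lower, and ended the calls of Clock, Isx and Tcf7l2 and of no other of the 44 named regions. Of the refits of these 44, 388 kept sign and call, 38 lost and 3 gained the call with the sign kept, and 11 changed sign. Among the 11, Clock lost and Plin2 gained the call with the trend removed. With the trend removed the log2 fold became 0.015 at Clock, 0.059 at Pla2g6 and 0.283 at Plin2, and by library size only 0.043 at Pla2g6 and 0.068 at Plin2. Leaving out 1 library gave -0.19 to 0.033 at Pla2g6, -0.005 to 0.212 at Ddx58, -0.133 to 0.149 at Plin2 and -0.007 to 0.382 at Avil. The cause was not tested. RANKL libraries held fewer reads in regions than control libraries, and ONECUT2 has no value per library, which limits what either comparison can resolve.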
